A study of Homo sapiens with 12 samples.

Results

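Readthrough rows are entries that carry the names of 2 neighbouring genes joined by a hyphen, and they stand for transcripts that run from the first gene into the second. The rule took every row name with exactly 1 hyphen in which the text on each side was itself a row name. It found 112 joined rows, written here as upstream-downstream gene, among the 23713 rows of each table, and they named 223 single genes. RNA-seq had been done on 12 libraries of the human ovarian cancer lines KURAMOCHI and COV362, which the labels describe as untransduced. Cells had been given DMSO, the solvent control, or THZ1 at 50 nM or 250 nM for 6 hr, with 2 libraries per line and dose. THZ1 is a covalent inhibitor of the transcriptional kinases CDK7, CDK12 and CDK13. The labels do not say that replicates were separate cultures, so p-values measure only the spread between these libraries, which may be technical.

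Most human protein coding transcripts end where the nascent RNA is cut downstream of a polyadenylation signal and a poly(A) tail is added, after which RNA polymerase II leaves the DNA. If that cut is skipped, the polymerase may run into the next gene on the same strand, and splicing can then join exons of both genes. Such joined transcripts commonly lose the last exon of the upstream gene, which carries its cleavage signal, and the first exon of the downstream gene, which has no splice acceptor. CDK12 and CDK13 phosphorylate the polymerase tail during elongation and are known to affect the choice of polyadenylation site.

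The annotation of the joined rows had that structure. In GENCODE on GRCh37, the assembly that hg19 shares, 95 of the 112 joined names were found, and 92 of them carried its readthrough tag. Both single genes were placed for 107 joined rows, in all 107 on the same strand and in 104 in the order named. PALM2-AKAP2 is counted among the 107 although both of its single names led to the same GENCODE gene. The median gap between the single genes was 2420 bases, and 60 of the 107 gaps were between 0 and 10000 bases. Another 17 gaps were negative, the annotated spans overlapping. Among 20321 pairs of same-strand neighbours the median gap was 54950 bases, and 20.4% of the gaps were under 10000. Overlapping neighbours were left out of these pairs but not of the joined rows, so the medians cover unlike sets. A splice junction from the upstream into the downstream gene could be read for 61 joined rows, 52 of them in coding sequence. The junction left the penultimate exon of the upstream gene in 45 rows and entered the second exon of the downstream gene in 48, with both in 37.

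The junctions of 7 of the joined rows described below are shown, read 5′ to 3′ on the transcribed strand. For ISY1-RAB43, SLMO2-ATP5E, PPAN-P2RY11 and MSH5-SAPCD1, also described below, no junction from the upstream into the downstream gene was found. SLMO2-ATP5E was not among the joined names found in GENCODE. The 15 bases in lower case end the upstream exon and the 15 in capitals begin the downstream exon. A read that crosses such a junction cannot come from either single gene as annotated.
NDUFC2-KCTD14: attttcctgaagaagGGGGTGACATTGGCC
RPL36A-HNRNPH2: gataagaagagaaagCTACACCAAAATTGC
HNRNPUL2-BSCL2: caatacaatcgggatGGACCCTCCATTTTC
BCL2L2-PABPN1: agcagtgggggctggGAGCTGGAAGCTATC
COMMD3-BMI1: atggaacaattacagGATTTTTTATCAAGC
NME1-NME2: catacaagttggcagGACCATGGCCAACCT
TGIF2-C20orf24: ctgtcagtgctgcaaGATGAATTTTTAGAT

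In GRCh37 coordinates, NDUFC2-KCTD14 joined position 77784044 to position 77749804 of chromosome 11 on the minus strand, and HNRNPUL2-BSCL2 joined position 62482972 to position 62474796 of chromosome 11 on the minus strand. On plus strands, RPL36A-HNRNPH2 joined position 100650445 to position 100666924 of chromosome X. The other plus-strand junctions linked 23777408 to 23791390 on chromosome 14 for BCL2L2-PABPN1 and 22607947 to 22615360 on chromosome 10 for COMMD3-BMI1. NME1-NME2 linked 49238633 to 49244188 on chromosome 17, and TGIF2-C20orf24 linked 35207369 to 35236118 on chromosome 20. All 7 lay in coding exons. RPL36A-HNRNPH2 left exon 4 of 5 of RPL36A and entered exon 2 of 2 of HNRNPH2. NME1-NME2 left exon 4 of 5 and entered exon 2 of 5, and TGIF2-C20orf24 left exon 2 of 3 and entered exon 2 of 4.

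The cleavage signal of the upstream gene was not rarer than elsewhere by letters alone. The hexamer AATAAA stood in the last 50 bases, on the transcribed strand, of 77 of 107 upstream genes (72.0%) and of 77 of 110 downstream genes (70.0%), against 65.4% of 18481 genes. With ATTAAA also counted the shares were 83.2%, 81.8% and 79.8%. These matches describe the annotated ends only.

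Most joined rows share nearly all of their exon bases with the single genes. Over 91 joined rows whose exons could be compared in GENCODE, the median share of joined exon bases found in neither single gene was 2.85%, and for 30 rows it was 0. For PALM2-AKAP2 this 0 is empty, since its joined and single names led to the same gene. It was under 10% for 65 rows. Among the rows described below it was 70.2% for ZNF670-ZNF695, 56.6% for IQCJ-SCHIP1, 37.2% for JMJD7-PLA2G4B, 22.8% for RBM14-RBM4 and 21.4% for ANKHD1-EIF4EBP3. The share was 5.22% for PPAN-P2RY11, 4.56% for BCL2L2-PABPN1, 2.85% for MSH5-SAPCD1, 0.363% for NDUFC2-KCTD14 and 0.109% for TGIF2-C20orf24. For RPL36A-HNRNPH2, ISY1-RAB43, HNRNPUL2-BSCL2, COMMD3-BMI1 and NME1-NME2 it was 0. Most rows with the main calls below thus have almost no exon bases of their own. Where exons are shared, FPKM may depend on how the authors' estimation divided reads among overlapping genes. The values, changes and ratios of such rows below are all uncertain in that respect, which is not repeated for each row. The files hold no junction reads, so this was not tested.

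The values are FPKM, an abundance corrected for transcript length and number of reads, which the authors scaled to spike-in RNA added per cell. Median FPKM of rows above the minimum was 10.9 to 14.4 in the 4 DMSO libraries and 2.84 to 3.32 in the 4 libraries at 250 nM. Rows with no signal share 1 low value in each library, 0.0783 to 0.119 FPKM, called the floor here. It is not a lower bound, since some values lie below it. The ovarian epithelial markers PAX8, KRT8 and KRT18 were high in DMSO in both lines, while WT1 was under 1 FPKM in COV362, and MUC16 was under 0.2 FPKM in KURAMOCHI, where EPCAM and KRT7 were at most 4.78 FPKM. PTPRC, CD3E, HBB, PDGFRB and DCN, markers of blood cells and fibroblasts, were under 0.35 FPKM in every library. The lines were normalized separately and were not tested against each other.

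Joined rows were weakly expressed. Of the 112, 62 were above 1 FPKM in at least 1 of the 12 libraries and were tested (55.4%, against 60.3% of all rows), and 50 were not. This minimum keeps a row that is high in any 1 group, and for 47 of the 62 the highest library was a DMSO library. ARPC4-TTLL3 lay just under it, with a highest value of 0.960 FPKM, and TEN1-CDK3 just above, with 1.03 FPKM. Above 1 FPKM in all 12 libraries were 17 joined rows, and 2 were at the floor in all 12. The median of the mean FPKM was 1.25 for the 62 joined rows, 7.13 for the 117 single genes of these rows that were tested, and 8.35 for all rows tested.

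Set beside their single genes in DMSO, joined rows covered the whole range. In KURAMOCHI 45 joined rows averaged above 1 FPKM in DMSO, and of these 3 were above both single genes, 26 between them and 16 below both. In COV362 the counts were 4, 20 and 14 of 38. Over these 45 and 38 rows alone, the joined row amounted to a median of 46.4% of the upstream and 43.9% of the downstream gene in KURAMOCHI, and 29.8% and 86.1% in COV362. Over all 62 joined rows tested, these medians were 24.6% and 29.6% in KURAMOCHI and 17.5% and 25.6% in COV362. FPKM is a level per length, so these shares compare levels between genes.

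Replicates of weakly expressed joined rows were often far apart, with a row detected in 1 library of a group and near the floor in the other. In 12 of the 62 joined rows (19.4%) the replicates of at least 1 group were over 10-fold apart, against 4 of their 117 single genes (3.42%) and 2.03% of all rows tested. All 12 had a mean below 5 FPKM. The counts were 8 of 25 joined rows with a mean up to 1 FPKM (32%, against 2.83% of all rows at that level) and 4 of 23 between 1 and 5 FPKM (17.4%, against 1.61%). They were 0 of 8 between 5 and 20 FPKM (1.86% of all rows) and 0 of 6 above 20 FPKM (2.29%). Above 20 FPKM the median difference between replicates was 0.124 for joined rows and 0.121 for all rows, on the log2(FPKM + 1) scale. That match does not cover the range from 5 to 20 FPKM, where some joined rows also spread widely. In COV362, NME1-NME2 had a mean of 8.67 FPKM and a standard deviation of 9.97 in DMSO. RBM14-RBM4 had 7.76 and 6.18 at 50 nM in that line. INO80B-WBP1 and HSPE1-MOB4 were chosen as examples after their values were seen. INO80B-WBP1, whose upstream gene encodes a chromatin remodeler subunit, read 5.53 and 0.135 FPKM in the DMSO replicates of KURAMOCHI and 4.99 and 0.228 at 50 nM. HSPE1-MOB4, which begins in a mitochondrial chaperonin gene, read 4.38 and 0.112 FPKM at 50 nM in KURAMOCHI and 0.114 and 4.13 in DMSO in COV362.

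The sign of the difference between replicates was also compared. The difference between replicates had the opposite sign in the joined row and the upstream gene in 96 of 198 instances (48.5%), taken over 33 pairs and 6 groups, and in the joined row and the downstream gene in 111 of 186 (59.7%). Over 7212 pairs of same-strand neighbours, it had the opposite sign in 31.0%. These instances share libraries and genes, and the comparison is a description.

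**Figure D1:**
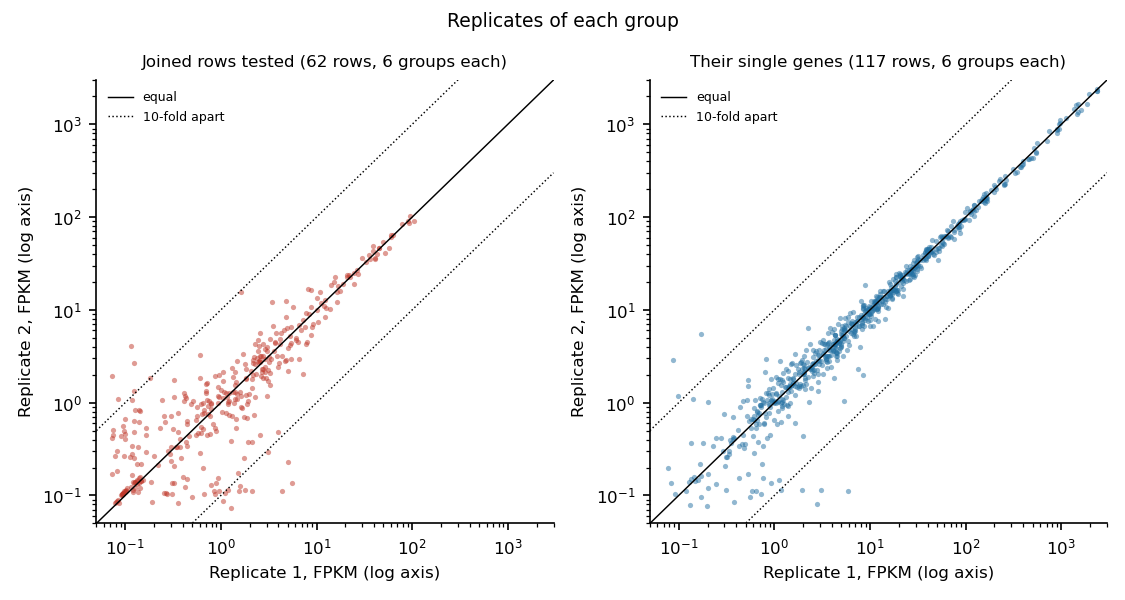
FPKM of replicate 1 against replicate 2, both on log axes, for the 62 joined rows tested (left) and the 117 single genes of these rows that were tested (right), with 1 point per row and group and dotted lines 10-fold apart. In 12 joined rows and 4 single genes, a point lies outside the dotted lines.

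The first comparison asked how joined rows responded to THZ1. With a row called at an adjusted p under 0.001 in limma and a log2 fold change beyond 0.5, joined rows were called lower at both doses in both lines. At 250 nM in KURAMOCHI 14 of 62 joined rows fell, against 68.6% of all rows tested, and in COV362 19 of 62 fell, against 84% of all rows. At 50 nM 1 of 62 fell in KURAMOCHI, against 11.3%, and 14 of 62 in COV362, against 70.5%. Both treated libraries were below both DMSO libraries for 41 joined rows at 250 nM in KURAMOCHI (95.9% of all rows) and for 38 in COV362 (95.6% of all rows). At 50 nM the counts were 28 (75.8% of all rows) and 43 (95.7% of all rows). The spread between replicates given above was wide in joined rows of low level, and its part in these counts was not tested. The 14 joined rows called at 250 nM in KURAMOCHI became 7 without DMSO replicate 1, 9 without DMSO replicate 2 and 6 without replicate 1 at 250 nM. The 14 at 50 nM in COV362 became 7 without DMSO replicate 2.

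Few joined rows were called higher, and all were low. PPAN-P2RY11 was called higher at 250 nM in KURAMOCHI, where 0.0491% of all rows were, and MSH5-SAPCD1 and TGIF2-C20orf24 rose at 250 nM in COV362, where 0.105% did. None was called higher by limma at 50 nM, against 0.0842% of all rows in KURAMOCHI and 0.0772% in COV362, although 1 and 2 joined rows had an unadjusted p under 0.05 in that direction. Without replicate 2 at 50 nM, 1 was called higher in KURAMOCHI and 3 in COV362, and without DMSO replicate 2 1 was in COV362. Both treated libraries lay above both DMSO libraries at 250 nM for 2 joined rows in KURAMOCHI (0.414% of all rows) and 4 in COV362 (0.54%), and at 50 nM for 4 (3.45%) and 3 (0.674%). A total of 9 joined rows fell at 250 nM in both lines, against 64.6% of all rows, and they were BCL2L2-PABPN1, COMMD3-BMI1, HNRNPUL2-BSCL2, IQCJ-SCHIP1, ISY1-RAB43, NDUFC2-KCTD14, RPL36A-HNRNPH2, SLMO2-ATP5E and TVP23C-CDRT4. TVP23C-CDRT4 was added to the named rows after its values were seen.

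On the log2(FPKM + 1) scale the median change of the 62 joined rows was -0.70 at 250 nM in KURAMOCHI and -0.50 in COV362, where the medians of all rows were -1.11 and -1.31. At 50 nM it was -0.27 in KURAMOCHI and -0.53 in COV362, beside -0.40 and -0.85 for all rows. The upstream genes of the same joined rows had medians of -0.88 and -1.21 at 250 nM, and the downstream genes -1.01 and -1.08. In COV362 at 250 nM 53 of the 60 upstream genes tested and 41 of the 57 downstream genes fell, beside 84% of all rows, and in KURAMOCHI 29 of 60 and 29 of 57, beside 68.6%. Low rows are compressed on this scale. With a pseudocount of 0.1 in place of 1, the joined medians at 250 nM were -1.15 in both lines, and those of all rows were -1.39 in KURAMOCHI and -1.55 in COV362.

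Direction depended on the spike-in scale. When libraries were scaled to the same median FPKM, the joined medians at 250 nM were 0.20 in KURAMOCHI and 0.39 in COV362, beside 0.29 and 0.31 for all rows. In KURAMOCHI 1 joined row was then called lower, beside 11.6% of all rows, and 5 higher, beside 26.9%. In COV362 1 was called lower, beside 11.3%, and 8 higher, beside 26.4%. BCL2L2-PABPN1, HNRNPUL2-BSCL2, IQCJ-SCHIP1 and SLMO2-ATP5E were then above DMSO in both lines, while NDUFC2-KCTD14 was called lower in both under every scaling. Relative to the median of all rows, the joined medians lay 0.41 higher in KURAMOCHI and 0.80 higher in COV362 at 250 nM on the log2(FPKM + 1) scale, and 0.25 and 0.41 higher with a pseudocount of 0.1.

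**Figure D2:**
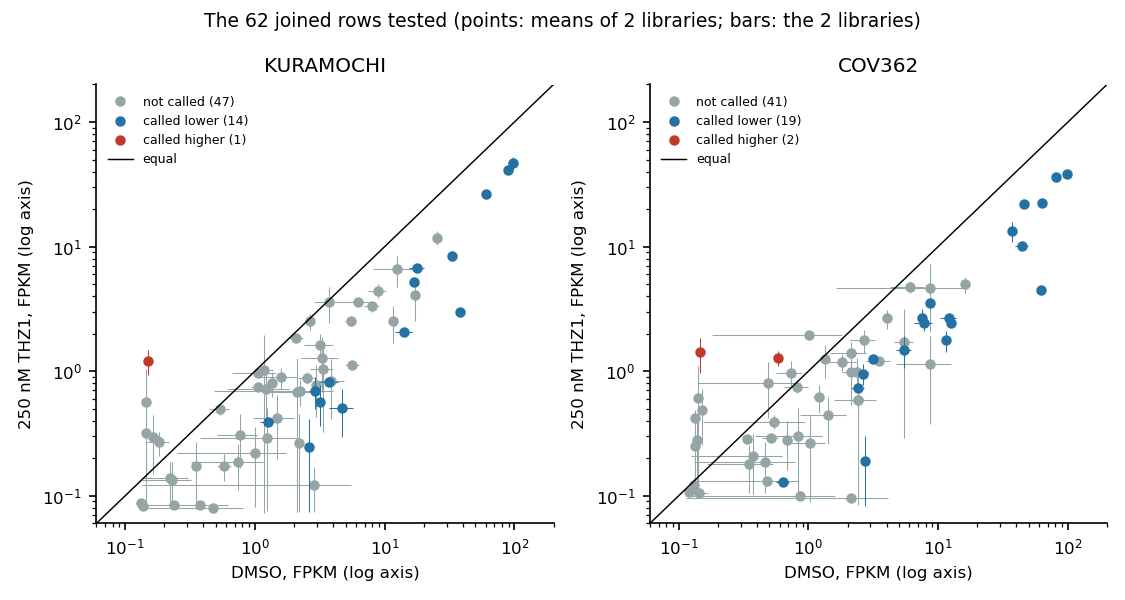
FPKM of the 62 joined rows tested in DMSO (horizontal, log axis) and at 250 nM THZ1 (vertical, log axis) in KURAMOCHI (left) and COV362 (right); points are means of 2 libraries, bars join the 2 libraries, and the line marks equal values. Rows called lower (14 and 19) lie below the line, mostly at high levels, rows called higher (1 and 2) above it at low levels, and most others carry long bars.

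Among the 12 joined rows with the highest mean FPKM, from 6.06 to 70.6, 8 were called lower at 250 nM in KURAMOCHI, beside 68.6% of all rows, and 10 in COV362, beside 84%. At 50 nM 0 of the 12 were called lower by limma in KURAMOCHI, beside 11.3% of all rows, although 8 had an unadjusted p under 0.05 in that direction, and 8 were in COV362, beside 70.5%. NDUFC2-KCTD14 had the largest fall of all joined rows in both lines at 250 nM. It begins in NDUFC2, which encodes a subunit of respiratory complex I, and ends in KCTD14, a BTB domain gene (chr11:77728017-77790911, minus strand). In KURAMOCHI it read 40.6 and 35.5 FPKM in DMSO, 19.1 and 19.0 at 50 nM and 3.19 and 2.74 at 250 nM. The doses did not overlap and fell in order. NDUFC2 itself read 44.7 and 42.6 FPKM in DMSO, 57.8 and 52.1 at 50 nM and 39.9 and 37.7 at 250 nM, so its libraries at 250 nM lay below those in DMSO by less than the call required (adjusted p = 0.0861, limma). KCTD14 read 4.39 and 3.87 FPKM in DMSO, 1.91 and 1.52 at 50 nM and 0.367 and 0.426 at 250 nM and fell with the joined row.

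COV362 gave the same picture for NDUFC2-KCTD14, with 59.5 and 64.5 FPKM in DMSO, 21.8 and 24 at 50 nM and 4.17 and 4.83 at 250 nM. NDUFC2 read 224 and 245 FPKM in DMSO, 184 and 194 at 50 nM and 154 and 146 at 250 nM, called lower at 250 nM. KCTD14 read 4.37 and 4.49 FPKM in DMSO, 0.914 and 1.81 at 50 nM and 0.0778 and 0.196 at 250 nM. The value of 0.0778 lies under the floor of its library, so it gives no measured level. The joined row changed by -3.30 ± 0.110 (SE, adjusted p = 6.93e-06) on the log2(FPKM + 1) scale in KURAMOCHI and by -3.52 ± 0.103 (SE, adjusted p = 8.16e-07) in COV362. As a share of NDUFC2, the joined row went from 90.9% and 83.5% in DMSO to 33.1% and 36.5% at 50 nM and 7.99% and 7.26% at 250 nM in KURAMOCHI. In COV362 it went from 26.6% and 26.3% to 11.9% and 12.4% and 2.71% and 3.32%.

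RPL36A-HNRNPH2 also fell at 250 nM in both lines, and its upstream gene, which encodes a protein of the large ribosomal subunit, was called lower in COV362 alone (chrX:100645999-100667285, plus strand). In KURAMOCHI the joined row read 33.0 and 32.6 FPKM in DMSO, 15.6 and 22.6 at 50 nM and 7.71 and 9.18 at 250 nM. RPL36A read 548 and 502 FPKM in DMSO, 538 and 493 at 50 nM and 510.5 and 437 at 250 nM, with no call at 250 nM (adjusted p = 0.187, limma). The joined row fell by 1.84 ± 0.179 (SE) on the log2(FPKM + 1) scale at 250 nM. HNRNPH2, an RNA-binding splicing regulator, read 17 and 13.6 FPKM in DMSO, 14.2 and 8.04 at 50 nM and 10.0 and 6.66 at 250 nM and was not called.

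In COV362, RPL36A-HNRNPH2 read 39.4 and 49.0 FPKM in DMSO, 20.6 and 23.7 at 50 nM and 10.2 and 9.88 at 250 nM. RPL36A read 1406 and 1614 FPKM in DMSO, 961 and 1044 at 50 nM and 901 and 857 at 250 nM, and HNRNPH2 read 24 and 25.1 FPKM in DMSO, 9.75 and 9.31 at 50 nM and 7.37 and 7.62 at 250 nM. All 3 rows were called lower at 250 nM there, and the joined row changed by -2.03 ± 0.126 (SE, adjusted p = 3.76e-06) in limma. It made up 2.80% and 3.04% of RPL36A in DMSO and 1.13% and 1.15% at 250 nM, and 6.02% and 6.5% and 1.51% and 2.1% in KURAMOCHI.

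ISY1-RAB43 joins a spliceosome-associated protein to a small GTPase (chr3:128806418-128879879, minus strand). In KURAMOCHI it read 16.2 and 12 FPKM in DMSO, 7.59 and 6.61 at 50 nM and 2.17 and 1.99 at 250 nM. ISY1 read 6.53 and 7.07 FPKM in DMSO, 6.27 and 5.69 at 50 nM and 2.93 and 2.81 at 250 nM, and RAB43 read 1.65 and 3.31 FPKM in DMSO, 1.38 and 1.83 at 50 nM and 0.302 and 0.207 at 250 nM. The joined row stood above ISY1 in DMSO and below it at 250 nM. In COV362 the joined row read 12.4 and 12.9 FPKM in DMSO, 4.19 and 4.24 at 50 nM and 2.26 and 2.61 at 250 nM and ISY1 read 21.5 and 23.7 FPKM in DMSO, 13.8 and 16.1 at 50 nM and 10.8 and 10.0 at 250 nM. RAB43 was low there, with 1.19 and 1.09 FPKM in DMSO, 0.670 and 0.373 at 50 nM and 0.275 and 0.415 at 250 nM. The joined row changed by -2.28 ± 0.170 (SE, adjusted p = 4.38e-05) and -1.99 ± 0.0999 (SE, adjusted p = 1.63e-06) at 250 nM in KURAMOCHI and COV362, on the log2(FPKM + 1) scale in limma.

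SLMO2-ATP5E, the highest joined row, links a mitochondrial lipid transfer protein to the epsilon subunit of ATP synthase. In KURAMOCHI it read 105 and 89.8 FPKM in DMSO, 90.3 and 91.7 at 50 nM and 52.0 and 41.0 at 250 nM. SLMO2 read 55.1 and 50.0 FPKM in DMSO, 29.5 and 23.9 at 50 nM and 13.4 and 13.2 at 250 nM. The joined row stayed near DMSO at 50 nM, where SLMO2 was lower in both libraries. ATP5E was far higher, with 1484 and 1352 FPKM in DMSO, 1589 and 1431 at 50 nM and 1469.8 and 1277 at 250 nM, and was not called at 250 nM (adjusted p = 0.674, limma). In COV362 the joined row read 94.2 and 102 FPKM in DMSO, 50.1 and 54.5 at 50 nM and 40.7 and 36.4 at 250 nM. SLMO2 read 41.0 and 47.1 FPKM in DMSO, 25.7 and 27.0 at 50 nM and 12.5 and 12.1 at 250 nM, and all 3 rows were called lower at 250 nM there. ATP5E read 1342 and 1476 FPKM in DMSO, 958 and 1115 at 50 nM and 911 and 804 at 250 nM. The joined row lay between its single genes in level and in change, with -1.06 ± 0.128 (SE, adjusted p = 3.34e-04) in KURAMOCHI and -1.32 ± 0.0948 (SE, adjusted p = 7.17e-06) in COV362 on the log2(FPKM + 1) scale at 250 nM.

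**Figure D3:**
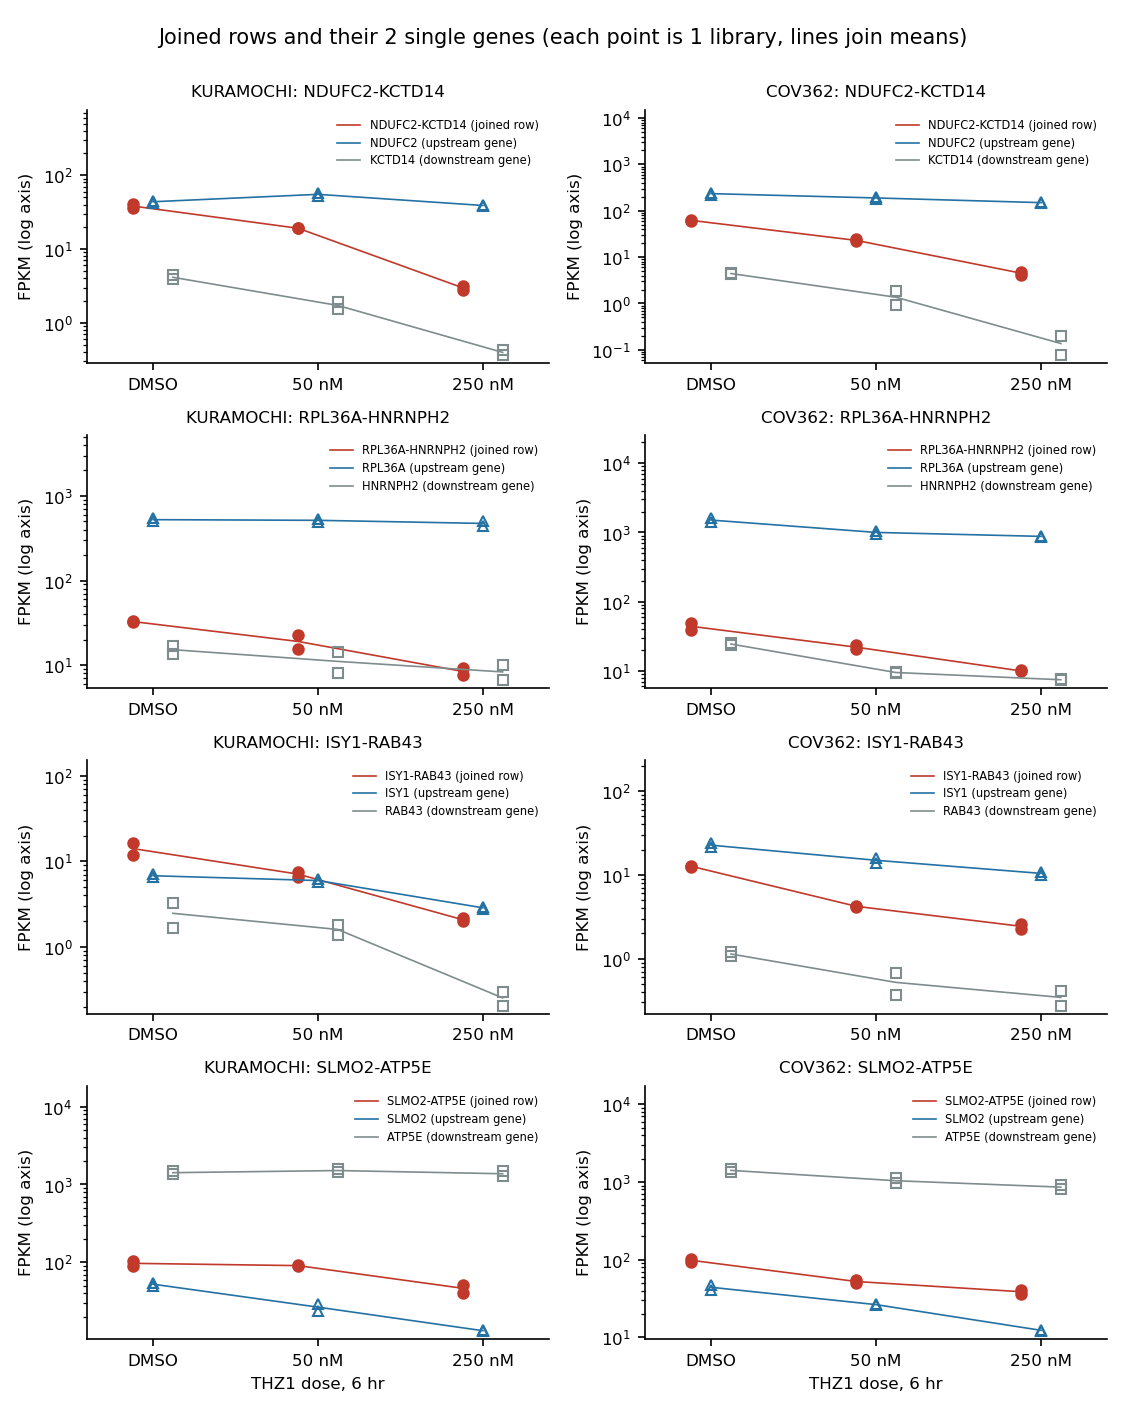
FPKM (log axis) by THZ1 dose for 4 joined rows (filled circles) with their upstream (triangles) and downstream (squares) genes in KURAMOCHI (left) and COV362 (right); each point is 1 library and lines join the means of 2. NDUFC2-KCTD14 drops with KCTD14 and more steeply than NDUFC2, RPL36A-HNRNPH2 drops more steeply than RPL36A, and SLMO2-ATP5E lies between its single genes.

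BCL2L2-PABPN1 links an anti-apoptotic BCL2 relative to the nuclear poly(A) binding protein that sets tail length (chr14:23776042-23795384, plus strand). It read 93.5 and 85.8 FPKM in DMSO, 56.7 and 46.2 at 50 nM and 39.3 and 42.9 at 250 nM in KURAMOCHI and 78.5 and 83.5 FPKM in DMSO, 43.2 and 39.6 at 50 nM and 36.5 and 35.5 at 250 nM in COV362. The joined row was above both single genes in all 12 libraries, since BCL2L2 was at most 31.3 FPKM and PABPN1 at most 27.8. It changed by -1.11 ± 0.113 (SE, adjusted p = 1.53e-04) and -1.15 ± 0.0841 (SE, adjusted p = 7.98e-06) at 250 nM in limma, and both single genes fell with it in both lines.

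HNRNPUL2-BSCL2 joins an RNA-binding nuclear protein to seipin, a lipid droplet protein of the endoplasmic reticulum (chr11:62457747-62494856, minus strand). In KURAMOCHI it read 59.5 and 61.3 FPKM in DMSO, 45.3 and 46.6 at 50 nM and 26.3 and 26.6 at 250 nM, close to HNRNPUL2 with 59.3 and 51.5 FPKM in DMSO, 52.4 and 46.3 at 50 nM and 26.0 and 24.7 at 250 nM. BSCL2 read 12.1 and 7.63 FPKM in DMSO, 9.57 and 7.64 at 50 nM and 14.1 and 16.0 at 250 nM and was not called (adjusted p = 0.0418, limma), although both libraries at 250 nM were above both in DMSO. In COV362 the joined row read 44.8 and 47.0 FPKM in DMSO, 24.9 and 24.7 at 50 nM and 20.8 and 22.8 at 250 nM, and BSCL2 read 2.66 and 3.44 FPKM in DMSO, 1.17 and 1.53 at 50 nM and 1.51 and 1.34 at 250 nM and fell. The joined row changed by -1.16 ± 0.0605 (SE, adjusted p = 1.48e-05) in KURAMOCHI and -1.04 ± 0.0852 (SE, adjusted p = 1.36e-05) in COV362.

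C7orf55-LUC7L2, which ends in a gene of U1 snRNP associated splicing, read 26.9 and 24.1 FPKM in DMSO, 14.0 and 18.5 at 50 nM and 10.2 and 13.3 at 250 nM in KURAMOCHI and missed the call at 250 nM (adjusted p = 0.00136, limma). In COV362 it read 62.8 and 63.6 FPKM in DMSO, 29.9 and 36.1 at 50 nM and 22.4 and 22.7 at 250 nM and changed by -1.45 ± 0.103 (SE, adjusted p = 6.91e-06). LUC7L2 in COV362 read 73.2 and 91.0 FPKM in DMSO, 39.0 and 42.5 at 50 nM and 18.9 and 16.1 at 250 nM, above the joined row in the DMSO and 50 nM libraries and below it at 250 nM. RBM14-RBM4, named for a pair of RNA binding proteins, read 16.6 and 17.9 FPKM in DMSO, 12.3 and 8.31 at 50 nM and 2.55 and 5.68 at 250 nM in KURAMOCHI and 16.4 and 15.5 FPKM in DMSO, 3.40 and 12.1 at 50 nM and 4.24 and 5.69 at 250 nM in COV362. Its replicates spread widely at 50 nM in COV362, and it was called in neither line (adjusted p = 0.00154 and 0.0130 at 250 nM, limma), whereas RBM14 and RBM4 were each called lower in both.

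COMMD3-BMI1 ends in BMI1, a Polycomb repressor subunit (chr10:22605317-22618471, plus strand). It read 17.6 and 16.0 FPKM in DMSO, 8.66 and 5.38 at 50 nM and 5.26 and 5.20 at 250 nM in KURAMOCHI and 13.8 and 10.3 FPKM in DMSO, 4.60 and 6.05 at 50 nM and 2.53 and 2.84 at 250 nM in COV362. BMI1 read 11.1 and 10.2 FPKM in DMSO, 9.68 and 10.9 at 50 nM and 1.87 and 1.59 at 250 nM in KURAMOCHI, so at 50 nM the joined row lay below both DMSO libraries, while BMI1 overlapped them. At 250 nM the joined row changed by -1.51 ± 0.205 (SE, adjusted p = 5.50e-04) in KURAMOCHI and -1.81 ± 0.169 (SE, adjusted p = 2.73e-05) in COV362, on the log2(FPKM + 1) scale in limma. COMMD3, the higher single gene, fell in both lines at 250 nM.

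NME1-NME2 joins a pair of nucleoside diphosphate kinases whose sequences are alike, so reads may be hard to assign, which was not tested. It read 8.14 and 16.9 FPKM in DMSO, 5.62 and 10.9 at 50 nM and 4.78 and 8.41 at 250 nM in KURAMOCHI and 1.62 and 15.7 FPKM in DMSO, 8.84 and 16.3 at 50 nM and 7.22 and 2.05 at 250 nM in COV362. Its replicates overlapped between doses, and it was not called at 250 nM in either line. NME2 was at least 661 FPKM in every library. IQCJ-SCHIP1 carried the name of IQCJ, which was at the floor throughout, and read 15.3 and 20.1 FPKM in DMSO, 12 and 11.1 at 50 nM and 6.57 and 6.93 at 250 nM in KURAMOCHI. In COV362 it read 35.0 and 39.2 FPKM in DMSO, 24.9 and 19.1 at 50 nM and 11 and 15.8 at 250 nM, and it fell in both lines at 250 nM. SCHIP1 read 5.94 and 0.112 FPKM in the same COV362 libraries at 250 nM. GPR75-ASB3 begins in a G protein-coupled receptor gene and read 10.3 and 7.38 FPKM in DMSO, 8.66 and 10.7 at 50 nM and 5.00 and 3.85 at 250 nM in KURAMOCHI, without a call, and 8.95 and 6.47 FPKM in DMSO, 2.91 and 3.78 at 50 nM and 2.71 and 2.12 at 250 nM in COV362, where it fell by 1.34 ± 0.178 (SE) at 250 nM.

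The second comparison set each joined row against its single genes within a library, as the log2 ratio of the FPKM values. Such a ratio does not depend on the scaling of the library. The ratio to the upstream gene could be fitted for 33 pairs and that to the downstream gene for 31, in which both rows had a mean above 1 FPKM, together with 7212 downstream-to-upstream ratios of same-strand neighbours. At 250 nM in KURAMOCHI 3 of 33 upstream ratios were called lower, against 17.7% of neighbour ratios, and none higher in limma, against 18.4%, although 4 had an unadjusted p under 0.05. In COV362 3 of 33 were called lower (18.2% of neighbour ratios) and 1 higher (18.6%).

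The same rows were called lower against the upstream gene in both lines, namely NDUFC2-KCTD14, RPL36A-HNRNPH2 and ISY1-RAB43, whose values in every library are given above. The log2 ratio of NDUFC2-KCTD14 to NDUFC2 changed by -3.52 ± 0.0979 (SE, adjusted p = 6.80e-06) in KURAMOCHI and by -3.14 ± 0.103 (SE, adjusted p = 1.25e-05) in COV362, in limma. That of RPL36A-HNRNPH2 to RPL36A changed by -1.81 ± 0.243 (SE, adjusted p = 7.85e-04) and -1.35 ± 0.0686 (SE, adjusted p = 2.54e-05). That of ISY1-RAB43 to ISY1 changed by -1.5 ± 0.191 (SE, adjusted p = 6.08e-04) and -1.26 ± 0.139 (SE, adjusted p = 3.92e-04). The calls of NDUFC2-KCTD14 held without any 1 of the 6 libraries of either line. In KURAMOCHI, RPL36A-HNRNPH2 lost its call without either DMSO or either 250 nM library, and ISY1-RAB43 lost its without any 1 library other than DMSO replicate 2. In COV362, ISY1-RAB43 lost its call without either DMSO library or replicate 1 at 250 nM. With 1 library left out, upstream ratios called lower numbered 1 in KURAMOCHI without DMSO replicate 1. Without the eBayes trend 1 was called lower in KURAMOCHI and 2 in COV362.

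Against the downstream gene, 2 of 31 ratios were called lower at 250 nM in KURAMOCHI (17.7% of neighbour ratios) and 1 in COV362 (18.2%). None was called higher in KURAMOCHI in limma (18.4%, with 4 at an unadjusted p under 0.05), and 1 was in COV362 (18.6%). SLMO2-ATP5E to ATP5E changed by -1.02 ± 0.0821 (SE, adjusted p = 8.52e-05) in KURAMOCHI and -0.63 ± 0.0551 (SE, adjusted p = 1.56e-04) in COV362. The joined row made up 7.07% and 6.65% of ATP5E in DMSO and 3.54% and 3.21% at 250 nM in KURAMOCHI. HNRNPUL2-BSCL2 to BSCL2 changed by -1.84 ± 0.244 (SE, adjusted p = 7.57e-04) in KURAMOCHI, where the BSCL2 values had been higher. The corresponding ratio in COV362 was not called. Without any 1 of the 6 KURAMOCHI libraries, 0 or 1 of these ratios was called lower in that line, and without either DMSO or either 250 nM library of COV362, 0 was.

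At 50 nM fewer ratios differed. NDUFC2-KCTD14 to NDUFC2 was lower in both lines, with -1.33 ± 0.0979 (SE, adjusted p = 3.81e-04) in KURAMOCHI and -1.13 ± 0.103 (SE, adjusted p = 7.84e-04) in COV362 in limma, where 3.98% and 3.42% of neighbour ratios were called lower. BCL2L2-PABPN1 to BCL2L2 was higher in KURAMOCHI, by 0.81 ± 0.0847 (SE, adjusted p = 9.04e-04), where 4.34% of neighbour ratios were. Both calls in KURAMOCHI, and that in COV362, were lost without any 1 of the DMSO or 50 nM libraries, leaving 0. The joined row was 299% and 314% of BCL2L2 in DMSO and 562% and 510.5% at 50 nM there. None of the 31 downstream ratios was called at 50 nM in limma, although 4 lower ones in KURAMOCHI, and 3 lower and 3 higher ones in COV362, had an unadjusted p under 0.05. Neighbour ratios called lower made up 3.98% and 3.42%, and those called higher 4.34% and 3.9%.

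Ratios were also counted where treated and DMSO libraries did not overlap. The upstream ratio of both libraries at 250 nM lay below both in DMSO for 12 of 33 pairs in KURAMOCHI (42.1% of neighbour ratios) and 7 in COV362 (42.7%), and above for 7 (43%) and 12 (44.2%). The downstream ratio lay below for 9 of 31 (42.1%) and 5 (42.7%) and above for 6 (43%) and 12 (44.2%). At 50 nM the upstream ratio lay below for 11 in KURAMOCHI (39.7%) and 8 in COV362 (39.7%) and above for 6 (40.2%) and 8 (40.6%). The downstream ratio lay below for 8 (39.7%) and 7 (39.7%) and above for 7 (40.2%) and 6 (40.6%).

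Of 27 joined rows with both ratios, the change at 250 nM lay nearer to that of the downstream gene in 13 and to that of the upstream gene in 14, in KURAMOCHI and in COV362 alike. At 50 nM the counts were 17 and 10 in KURAMOCHI and 13 and 14 in COV362. The median absolute change of the log2 ratio at 250 nM was 0.682 to the upstream and 0.738 to the downstream gene in KURAMOCHI, and 0.606 and 0.996 in COV362. The median signed change of that ratio to the upstream gene was -0.25 in KURAMOCHI and 0.41 in COV362, and to the downstream gene -0.30 and 0.30, beside 0.00813 and 0.00929 for neighbour ratios. At 50 nM the medians were -0.27 and 0.0183 upstream and -0.23 and 0.00785 downstream. Without replicate 1 at 250 nM the upstream median in COV362 was -0.0162, and without 1 DMSO library the downstream median there at 50 nM was -0.0717 or -0.0611.

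**Figure D4:**
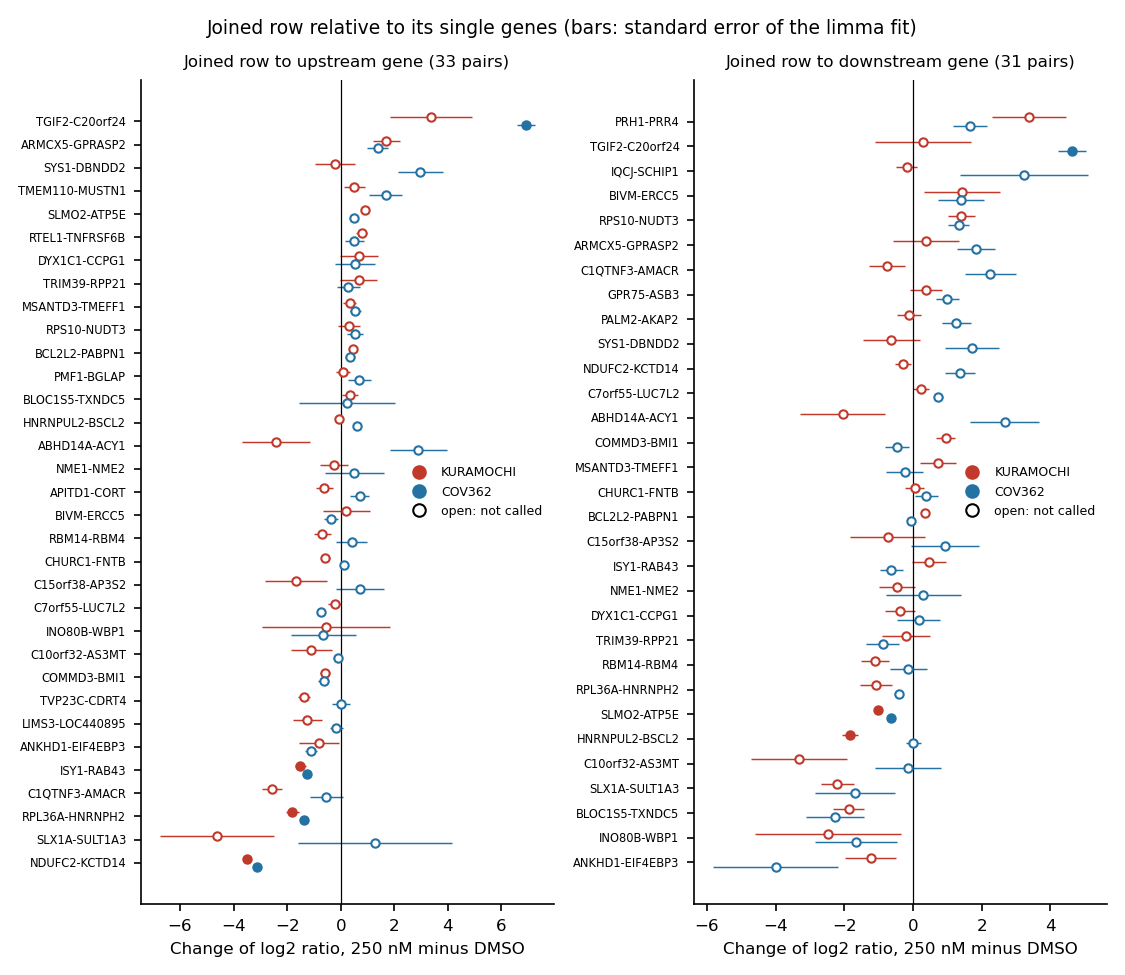
Change of the log2 ratio of each joined row to its upstream gene (left, 33 pairs) and downstream gene (right, 31 pairs), 250 nM minus DMSO, in KURAMOCHI (red) and COV362 (blue); bars are standard errors of the limma fit and filled points were called. NDUFC2-KCTD14, RPL36A-HNRNPH2 and ISY1-RAB43 are called lower in both lines on the left, SLMO2-ATP5E on the right, and most pairs have open points with wide bars.

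The rows called higher at 250 nM were all low, and their DMSO values lay near the floor in 2 of 3. PPAN-P2RY11 joins a ribosome biogenesis factor to a purine receptor (chr19:10216899-10225456, plus strand). In KURAMOCHI it read 0.153 and 0.148 FPKM in DMSO, 0.128 and 0.119 at 50 nM and 0.932 and 1.47 at 250 nM. PPAN read 40.1 and 37.7 FPKM in DMSO, 5.38 and 4.93 at 50 nM and 1.46 and 1.79 at 250 nM in the same libraries, and P2RY11 3.50 and 3.18 FPKM in DMSO, 2.39 and 2.32 at 50 nM and 1.27 and 0.964 at 250 nM. Of the 12 libraries, 1 was above 1 FPKM for this row, a library of the group called higher, so the row entered the test through that library. Its change of 0.93 ± 0.113 (SE, adjusted p = 3.41e-04) in limma on the log2(FPKM + 1) scale is therefore a description, and it depends on the pseudocount, since DMSO was near the floor. With no minimum FPKM the row was not called (adjusted p = 0.00142, limma). Both single genes fell. In COV362 the joined row read 0.127 and 0.139 FPKM in DMSO, 0.0997 and 0.667 at 50 nM and 0.10 and 0.403 at 250 nM, with 1 library of each treated group near the floor, and was not called.

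TGIF2-C20orf24 begins in a homeodomain repressor gene (chr20:35202956-35240787, plus strand). In COV362 it read 0.139 and 0.153 FPKM in DMSO, 0.105 and 0.119 at 50 nM and 1.86 and 0.968 at 250 nM. TGIF2 read 12.7 and 13.8 FPKM in DMSO, 2.85 and 3.27 at 50 nM and 1.04 and 0.990 at 250 nM, and C20orf24 read 103 and 125 FPKM in DMSO, 65.1 and 70.4 at 50 nM and 39.4 and 45.0 at 250 nM, so both single genes fell. The joined row changed by 1.05 ± 0.157 (SE, adjusted p = 3.93e-04) in limma. Its ratios to TGIF2 and to C20orf24 are the upstream and downstream ratios called higher at 250 nM in COV362. The pair met the minimum on the mean through KURAMOCHI, since the joined row averaged 0.557 FPKM over the 6 libraries of COV362, and its DMSO values in COV362 were near the floor, so these ratios give no size of change. The downstream ratio lost its call without either DMSO library, with 0 downstream ratios then called higher. In KURAMOCHI the joined row was already detected in DMSO and read 2.27 and 4.33 FPKM in DMSO, 0.123 and 2.70 at 50 nM and 1.89 and 0.681 at 250 nM, and both libraries at 250 nM were below both in DMSO without a call (adjusted p = 0.184, limma).

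MSH5-SAPCD1 begins in MSH5, a MutS homolog of meiotic recombination (chr6:31707797-31732628, plus strand). It had its lowest values at 50 nM in both lines. In KURAMOCHI it read 0.935 and 1.17 FPKM in DMSO, 0.123 and 0.256 at 50 nM and 0.774 and 0.710 at 250 nM, and in COV362 0.625 and 0.548 FPKM in DMSO, 0.0985 and 0.111 at 50 nM and 1.46 and 1.11 at 250 nM. MSH5 in COV362 read 5.40 and 4.98 FPKM in DMSO, 2.64 and 2.59 at 50 nM and 3.36 and 3.10 at 250 nM and fell at both doses. The joined row was called lower at 50 nM in COV362 and higher at 250 nM, with changes of -0.52 ± 0.0885 (SE, adjusted p = 9.37e-04) and 0.52 ± 0.0885 (SE, adjusted p = 7.98e-04) on the log2(FPKM + 1) scale. In KURAMOCHI neither dose was called (adjusted p = 0.00102 at 50 nM and 0.0409 at 250 nM, limma).

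Calls for these rows turned on single libraries. PPAN-P2RY11 lost its call without either DMSO library of KURAMOCHI, with 0 joined rows then called higher. TGIF2-C20orf24 and MSH5-SAPCD1 lost theirs without either DMSO library of COV362, again with 0 called higher, and MSH5-SAPCD1 also without replicate 1 at 250 nM, with 1 called higher.

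**Figure D5:**
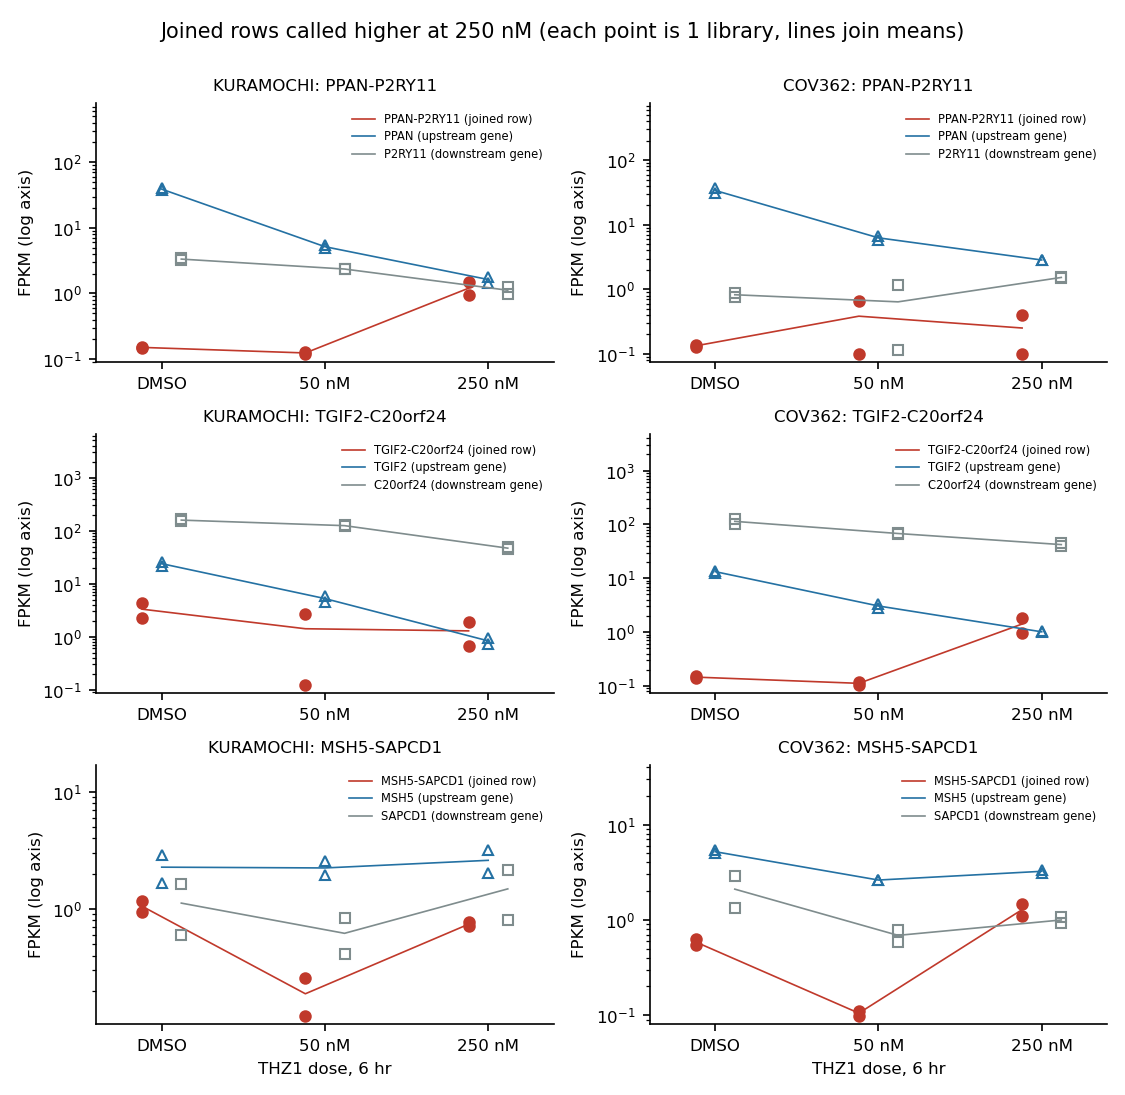
FPKM (log axis) by THZ1 dose for PPAN-P2RY11, TGIF2-C20orf24 and MSH5-SAPCD1 (filled circles) with their upstream (triangles) and downstream (squares) genes in KURAMOCHI (left) and COV362 (right); each point is 1 library and lines join the means of 2. The joined rows stay below 2 FPKM at 250 nM, while PPAN, TGIF2 and C20orf24 drop with dose.

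The other rows at the ends of the list were low or uneven. SLX1A-SULT1A3, part of a duplicated segment with near-identical copies of both genes, read 3.74 and 5.66 FPKM in DMSO, 1.04 and 1.13 at 50 nM and 0.298 and 0.714 at 250 nM in KURAMOCHI and fell by 1.91 ± 0.204 (SE) at 250 nM. Its values in COV362 were 3.12 and 1.72 FPKM in DMSO, 0.315 and 0.514 at 50 nM and 0.0837 and 1.08 at 250 nM, with no call. BLOC1S5-TXNDC5, which ends in a disulfide isomerase gene, read 12.5 and 10.5 FPKM in DMSO, 6.55 and 2.93 at 50 nM and 1.70 and 3.32 at 250 nM in KURAMOCHI and was not called in either line, its DMSO libraries in COV362 being 4.74 and 12.5 FPKM. ANKHD1-EIF4EBP3 read 11.2 and 11.9 FPKM in DMSO, 2.44 and 3.56 at 50 nM and 2.11 and 1.43 at 250 nM in COV362, where its downstream gene, a repressor of translation initiation, was at most 1.96 FPKM in every library. The joined row fell by 2.19 ± 0.174 (SE) there at 250 nM, and was not called in KURAMOCHI.

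At the upper end, without a call, UBE2F-SCLY read 0.133 and 0.147 FPKM in DMSO, 1.79 and 0.113 at 50 nM and 1.10 and 0.107 at 250 nM in COV362, its upstream gene encoding a NEDD8 conjugating enzyme. URGCP-MRPS24, which ends in a mitochondrial ribosomal protein gene, read 0.148 and 0.143 FPKM in DMSO, 0.124 and 1.33 at 50 nM and 1.05 and 0.0871 at 250 nM in KURAMOCHI. In both rows the treated replicates disagreed and 1 of each pair was near the floor. JMJD7-PLA2G4B read 0.146 and 0.218 FPKM in DMSO, 1.20 and 0.114 at 50 nM and 0.327 and 0.210 at 250 nM and ZNF670-ZNF695, a pair of zinc finger genes, 0.146 and 0.142 FPKM in DMSO, 0.124 and 0.480 at 50 nM and 0.303 and 0.331 at 250 nM in KURAMOCHI. RNF103-CHMP3, which ends in a gene of the ESCRT-III complex, read 0.144 and 0.160 FPKM in DMSO, 1.73 and 0.694 at 50 nM and 0.257 and 0.719 at 250 nM in COV362, where all 4 treated libraries were above both in DMSO. ABHD14A-ACY1, which ends in aminoacylase 1, read 0.180 and 1.83 FPKM in DMSO, 2.49 and 4.12 at 50 nM and 2.11 and 1.78 at 250 nM in COV362. ABHD14A-ACY1 was higher in both libraries at 50 nM, yet was not called (adjusted p = 0.0184, limma). RNF103-CHMP3 was above 1 FPKM in 1 of the 12 libraries, replicate 1 at 50 nM in COV362, and entered the test through it. UBE2F-SCLY was above 1 FPKM only in treated libraries of COV362, and URGCP-MRPS24 only in treated libraries of KURAMOCHI. JMJD7-PLA2G4B was above 1 FPKM only in replicate 1 at 50 nM in KURAMOCHI. Each of these rows entered the test through treated libraries, so their values and their places in the list are a description.

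The single joined row called at 50 nM in KURAMOCHI was FKBP1A-SDCBP2, named after its values were seen. It read 2.77 and 3.18 FPKM in DMSO, 0.120 and 0.110 at 50 nM and 0.430 and 1.13 at 250 nM, so both libraries at 50 nM were near the floor and those at 250 nM were higher again. It changed by -1.83 ± 0.185 (SE, adjusted p = 7.64e-04) at 50 nM in limma, and the call was lost without any 1 of the 6 KURAMOCHI libraries, leaving 0.

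A list of 33 genes of transcription termination and 3′ end processing, with transcriptional kinases and a cyclin, was mostly lower as well. At 250 nM 32 of 33 were called lower in KURAMOCHI and 33 of 33 in COV362, where 68.6% and 84% of all rows were, with median log2 changes of -1.89 and -1.95. At 50 nM 10 and 29 were called lower, beside 11.3% and 70.5% of all rows. The exception at 250 nM was XRN2, the exonuclease that helps release the polymerase, with an adjusted p of 0.00171 in KURAMOCHI in limma. PCF11, which binds the polymerase tail and promotes termination and was named after its values were seen, read 14.2 and 11 FPKM in DMSO, 3.45 and 2.90 at 50 nM and 0.399 and 0.563 at 250 nM in KURAMOCHI and 24.1 and 26.8 FPKM in DMSO, 4.52 and 5.30 at 50 nM and 1.65 and 1.62 at 250 nM in COV362. PABPN1 stands both in this list and among the downstream genes. Whether these levels bear on the joined rows was not tested.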

How the data were processed

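RNA-seq of 12 libraries was used, 2 per line (KURAMOCHI, COV362) and treatment (DMSO, 50 nM or 250 nM THZ1, 6 hr). Per the labels and the study's methods, the authors mixed RNA normalized by cell count with ERCC spike-in RNA, made stranded mRNA libraries and sequenced single-end reads. They aligned these to hg19 with HISAT, estimated FPKM with cuffquant and cuffnorm of cufflinks, and rescaled it to the spike-ins, each line apart. Tool versions and the gene annotation were not given in the sources used here. The deposited values are FPKM, 1 column per library. The study names a count test, but these are not counts, so limma was used, and read depth is unknown.

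Row names were split at their hyphen to find joined rows. Rows above 1 FPKM in at least 1 library were tested (14251 rows, ERCC rows left out) on log2(FPKM + 1). The test was limma (version 3.58.1, R version 4.3.3), two-sided, fitted to all 6 libraries of a line by lmFit and eBayes with a mean trend, with Benjamini-Hochberg adjustment over all rows. A call needed an adjusted p under 0.001 and a log2 change beyond 0.5. Log2 ratios without a pseudocount were fitted for pairs in which both rows had a mean above 1 FPKM, and adjusted together with the ratios of 7212 neighbour pairs. Every adjusted p is from limma. Both fits were tested on simulated data with known changes. Gene positions and junctions came from GENCODE v44 lifted to GRCh37, which is not the authors' annotation, and the sequence from GRCh37.

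Named rows were MSH5-SAPCD1, the 12 joined rows with the highest mean FPKM, the 5 lowest and 5 highest log2 changes of each line at 250 nM, rows called higher, and rows whose upstream ratio was called in both lines. Their single genes, and genes of the termination list not called lower at 250 nM, were named too. Any other row was named after its values were seen. The joined rows and lists were chosen with earlier results of these data known, and the 10-fold replicate cut after values were seen. Alternatives covered the pseudocount, the minimum FPKM, rescaling, thresholds, the fit, the replicate block and leaving out each library.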

Additional observations from a re-analysis of the deposited data

Results flagged for a closer look

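Groups of 2 libraries are too small for a check of single outlying libraries. In 5 instances, both libraries of a joined row at the dose given lay on one side of both DMSO libraries in KURAMOCHI and on the other side in COV362. The difference between the lines was not tested in any of them, because the lines were normalized separately.

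MSH5-SAPCD1 had log2 fold changes at 250 nM of -0.24 in KURAMOCHI and 0.52 in COV362, and TGIF2-C20orf24 of -0.92 and 1.05. Their calls in COV362 and their values are given above. ZNF670-ZNF695 had log2 fold changes of 0.20 in KURAMOCHI and -0.67 in COV362 at 250 nM, neither of them called, with values in COV362 of 0.706 and 1.34 FPKM in DMSO, 0.274 and 0.103 at 50 nM and 0.0893 and 0.440 at 250 nM. At 50 nM TRIM39-RPP21, which begins in a tripartite motif gene and ends in a subunit gene of RNase P, had log2 fold changes of 0.50 and -0.69, not called. It read 0.323 and 1.15 FPKM in DMSO and 1.64 and 1.17 at 50 nM in KURAMOCHI, and 3.29 and 1.57 and 0.965 and 1.16 in COV362. ARMCX5-GPRASP2 had 0.14 and -0.83 on that scale at 50 nM, not called, with 0.306 and 0.136 FPKM in DMSO and 0.351 and 0.333 at 50 nM in KURAMOCHI, and 2.77 and 4.28 and 1.85 and 1.21 in COV362. The values in KURAMOCHI lie close to the floor for ZNF670-ZNF695 and ARMCX5-GPRASP2.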

How the results depend on the processing

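At 250 nM the call of NDUFC2-KCTD14 and that of its ratio to NDUFC2 held in both lines under every alternative run. Among the named rows and ratios called, the alternatives kept direction and side of the threshold in 540 instances, lost the call in 145 and turned the direction in 32, all 32 under the 2 rescalings, which set aside the spike-in scale. Counts stayed within 1.5 times and medians within the replicate spread in 305 instances, and the others follow. The cause of each shift was not tested, except that a changed minimum, threshold or number of libraries alters the calls by construction. Read depth is unknown, so values near the floor cannot be told from 0, and 2 libraries per group cannot give an exact two-sided permutation p below 0.33. A library left alone in its group was taken to vary like the others of its line.

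With a pseudocount of 0.1, joined rows called lower numbered 2 at 50 nM in KURAMOCHI, and the median log2 fold change of joined rows was -0.41 at 50 nM and -1.15 at 250 nM in KURAMOCHI and -0.94 at 50 nM and -1.15 at 250 nM in COV362. With a minimum of 10 FPKM, joined rows called lower numbered 11 at 250 nM in COV362, and joined rows called higher numbered 0 at 250 nM in KURAMOCHI and 0 at 250 nM in COV362. The median log2 fold change of joined rows was -0.73 at 50 nM and -1.21 at 250 nM in KURAMOCHI and -0.98 at 50 nM and -1.48 at 250 nM in COV362. With no minimum FPKM, joined rows called lower numbered 0 at 50 nM and 6 at 250 nM in KURAMOCHI, and joined rows called higher numbered 0 at 250 nM in KURAMOCHI and 1 at 250 nM in COV362. The median log2 fold change of joined rows was -0.0219 at 50 nM and -0.12 at 250 nM in KURAMOCHI and -0.11 at 50 nM and -0.0843 at 250 nM in COV362. With libraries scaled to equal median FPKM, joined rows called lower numbered 0 at 50 nM (0.737% of all rows) and 1 at 250 nM (11.6% of all rows) in KURAMOCHI and 0 at 50 nM (0.147% of all rows) and 1 at 250 nM (11.3% of all rows) in COV362, and joined rows called higher numbered 5 at 250 nM (26.9% of all rows) in KURAMOCHI and 8 at 250 nM (26.4% of all rows) in COV362. The median log2 fold change of joined rows was 0.10 at 50 nM and 0.20 at 250 nM in KURAMOCHI and 0.0775 at 50 nM and 0.39 at 250 nM in COV362. The turned log2 fold changes in KURAMOCHI at 250 nM were 0.90 for SLMO2-ATP5E, 0.84 for BCL2L2-PABPN1, 0.77 for HNRNPUL2-BSCL2, 0.0187 for RPL36A-HNRNPH2, 0.55 for IQCJ-SCHIP1 and 0.28 for COMMD3-BMI1. The turned log2 fold changes in COV362 at 50 nM were 0.31 for SLMO2-ATP5E, 0.25 for BCL2L2-PABPN1, 0.32 for HNRNPUL2-BSCL2, 0.27 for C7orf55-LUC7L2, 0.22 for RPL36A-HNRNPH2 and 0.0375 for COMMD3-BMI1. The turned log2 fold changes in COV362 at 250 nM were 0.72 for SLMO2-ATP5E, 0.89 for BCL2L2-PABPN1, 0.97 for HNRNPUL2-BSCL2, 0.57 for C7orf55-LUC7L2, 0.56 for IQCJ-SCHIP1 and 0.33 for GPR75-ASB3. With median-of-ratios scaling, joined rows called lower numbered 0 at 50 nM (2.72% of all rows) and 2 at 250 nM (19.0% of all rows) in KURAMOCHI and 0 at 50 nM (0.772% of all rows) and 1 at 250 nM (18.9% of all rows) in COV362, and the median log2 fold change of joined rows was 0.0433 at 50 nM and 0.0655 at 250 nM in KURAMOCHI and 0.0521 at 50 nM and 0.15 at 250 nM in COV362. The turned log2 fold changes in KURAMOCHI at 250 nM were 0.38 for SLMO2-ATP5E, 0.33 for BCL2L2-PABPN1, 0.26 for HNRNPUL2-BSCL2 and 0.0727 for IQCJ-SCHIP1. The turned log2 fold changes in COV362 at 50 nM were 0.12 for SLMO2-ATP5E, 0.0605 for BCL2L2-PABPN1, 0.14 for HNRNPUL2-BSCL2, 0.0826 for C7orf55-LUC7L2 and 0.0347 for RPL36A-HNRNPH2. The turned log2 fold changes in COV362 at 250 nM were 0.27 for SLMO2-ATP5E, 0.44 for BCL2L2-PABPN1, 0.52 for HNRNPUL2-BSCL2, 0.12 for C7orf55-LUC7L2 and 0.12 for IQCJ-SCHIP1. With only the 2 groups compared in the fit, joined rows called lower numbered 0 at 50 nM in KURAMOCHI, and upstream ratios called lower numbered 0 at 50 nM in COV362. Upstream ratios called higher numbered 0 at 50 nM in KURAMOCHI, and downstream ratios called lower numbered 1 at 250 nM in KURAMOCHI. Replicate numbers did not pair the libraries, since deviations from the group means of same-numbered libraries correlated between -0.0703 and 0.0282. With the replicate number as a block, joined rows called lower numbered 0 at 50 nM in KURAMOCHI, and joined rows called higher numbered 0 at 250 nM in COV362. Upstream ratios called lower numbered 0 at 50 nM in KURAMOCHI and 0 at 50 nM in COV362, and upstream ratios called higher numbered 0 at 50 nM in KURAMOCHI. Without the eBayes trend, joined rows called lower numbered 0 at 50 nM in KURAMOCHI, and joined rows called higher numbered 0 at 250 nM in KURAMOCHI and 1 at 250 nM in COV362. Upstream ratios called lower numbered 0 at 50 nM and 1 at 250 nM in KURAMOCHI and 0 at 50 nM in COV362, and upstream ratios called higher numbered 0 at 50 nM in KURAMOCHI. Downstream ratios called lower numbered 0 at 250 nM in KURAMOCHI and 0 at 250 nM in COV362, and downstream ratios called higher numbered 2 at 250 nM in COV362. At an adjusted p under 0.05, joined rows called lower numbered 17 at 50 nM and 27 at 250 nM in KURAMOCHI and 29 at 50 nM and 29 at 250 nM in COV362, and joined rows called higher numbered 2 at 50 nM in COV362. Upstream ratios called lower numbered 6 at 50 nM and 7 at 250 nM in KURAMOCHI and 4 at 50 nM and 6 at 250 nM in COV362, and upstream ratios called higher numbered 4 at 50 nM and 3 at 250 nM in KURAMOCHI and 4 at 50 nM and 4 at 250 nM in COV362. Downstream ratios called lower numbered 3 at 50 nM and 5 at 250 nM in KURAMOCHI, and downstream ratios called higher numbered 3 at 250 nM in KURAMOCHI and 2 at 50 nM and 9 at 250 nM in COV362. At a log2 fold change beyond 1, joined rows called lower numbered 6 at 50 nM in COV362, and joined rows called higher numbered 0 at 250 nM in KURAMOCHI and 1 at 250 nM in COV362. At a log2 ratio change beyond 1, upstream ratios called higher numbered 0 at 50 nM in KURAMOCHI, and downstream ratios called lower numbered 0 at 250 nM in COV362. With a pseudocount of 1 in the ratios, upstream ratios called higher numbered 1 at 250 nM in KURAMOCHI and 1 at 50 nM and 3 at 250 nM in COV362, and downstream ratios called lower numbered 3 at 250 nM in COV362. Downstream ratios called higher numbered 4 at 250 nM in COV362, and the median upstream ratio change was -0.19 at 50 nM and -0.0470 at 250 nM in KURAMOCHI and 0.44 at 50 nM and 0.48 at 250 nM in COV362. The median downstream ratio change was -0.15 at 250 nM in KURAMOCHI and 0.0581 at 250 nM in COV362. With a pseudocount of 0.1 in the ratios, the median upstream ratio change was 0.19 at 50 nM in COV362. With a mean above 5 FPKM for both rows of a ratio, upstream ratios called higher numbered 0 at 250 nM in COV362, and downstream ratios called higher numbered 0 at 250 nM in COV362. The median upstream ratio change was -0.43 at 50 nM in KURAMOCHI and -0.10 at 50 nM and 0.24 at 250 nM in COV362, and the median downstream ratio change was -0.47 at 250 nM in KURAMOCHI and -0.00539 at 50 nM and -0.0641 at 250 nM in COV362. The block changed no other count past 1.5 times.

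With 1 library left out at a time, ranges were as follows, with the libraries that moved a value in brackets. In KURAMOCHI at 50 nM, joined rows called lower numbered 0 (moved by any library), and joined rows called higher numbered 0 to 1 (moved by 50 nM replicate 2). Upstream ratios called lower numbered 0 to 1 (moved by DMSO replicates 1 and 2 and 50 nM replicates 1 and 2), and upstream ratios called higher numbered 0 (moved by any library). The median upstream ratio change was -0.38 to -0.19 (moved by DMSO replicates 1 and 2 and 50 nM replicate 1), and the median log2 fold change of joined rows was -0.33 to -0.15 (moved by DMSO replicate 1). In KURAMOCHI at 250 nM, joined rows called lower numbered 6 to 17 (moved by DMSO replicates 1 and 2 and 250 nM replicate 1), and joined rows called higher numbered 0 to 1 (moved by DMSO replicates 1 and 2). Upstream ratios called lower numbered 1 to 2 (moved by DMSO replicate 1), and downstream ratios called lower numbered 0 to 1 (moved by any library). The median downstream ratio change was -0.31 to -0.10 (moved by 250 nM replicate 1), and the median log2 fold change of joined rows was -0.95 to -0.61 (moved by DMSO replicate 2). In COV362 at 50 nM, joined rows called lower numbered 7 to 17 (moved by DMSO replicate 2), and joined rows called higher numbered 0 to 3 (moved by DMSO replicate 2 and 50 nM replicate 2). Upstream ratios called lower numbered 0 to 1 (moved by DMSO replicates 1 and 2 and 50 nM replicates 1 and 2), and the median upstream ratio change was -0.0890 to 0.16 (moved by DMSO replicate 1 and 50 nM replicate 1). The median downstream ratio change was -0.0717 to 0.0301 (moved by DMSO replicates 1 and 2 and 50 nM replicate 2). In COV362 at 250 nM, joined rows called higher numbered 0 to 2 (moved by DMSO replicates 1 and 2 and 250 nM replicate 1), and downstream ratios called lower numbered 0 to 1 (moved by DMSO replicates 1 and 2 and 250 nM replicates 1 and 2). Downstream ratios called higher numbered 0 to 2 (moved by DMSO replicates 1 and 2 and 250 nM replicate 1), and the median upstream ratio change was -0.0162 to 0.41 (moved by DMSO replicates 1 and 2 and 250 nM replicates 1 and 2). The median log2 fold change of joined rows was -0.65 to -0.50 (moved by DMSO replicate 1 and 250 nM replicate 2).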

Other observations

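A strict order, with both libraries in DMSO above both at 50 nM and these above both at 250 nM, held for 16 of the 62 joined rows in KURAMOCHI (66.8% of all rows) and for 18 in COV362 (73.8% of all rows).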
